A study of Mus musculus with 3 samples.

Results

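Potassium channel genes of the mouse were followed through the cells of EGFR-driven glioblastomas. The members are all genes of the count table whose symbol begins with Kcn, then a letter from a to v, then a digit or b. There were 93 such genes among 50262. Of these, 88 encode channel proteins and 5 are non-coding RNAs named after a channel gene (Kcnq1ot1, Kcnab3os, Kcnd3os, Kcnmb4os1 and Kcnmb4os2). The pattern takes in the pore subunits of the voltage-gated (40 members), inward rectifier (15), 2-pore (14) and calcium- or sodium-activated (7) families, the beta subunits of voltage-gated channels (8) and those of the large-conductance calcium-activated channel (4). It leaves out the pore gene of that last channel, Kcnma1, and the Kcnip genes.

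Tumors arose after stereotactic injection of a Cre lentivirus into adult mice of both sexes on a mixed background. Every mouse carried a conditional human EGFR transgene, a Cdkn2a-/- genotype and a conditional luciferase reporter, so there was no group without these alleles here, and the transgene and reporter are recombined only in cells reached by the virus, whereas the loss of Cdkn2a is in every cell. Viable cells were sorted into CD45+ leukocytes and CD45- tumor and other brain cells and sequenced with inDrop, in which each captured transcript carries a random tag, so that tags (UMIs) rather than reads are counted. The annotation gives each library a stage of growth, early, medium or late, where a label large was read as late. Libraries of 1 stage were taken as 1 tumor sample, so the 23 used were treated as technical repeats of 3 samples. The paper names no medium stage and states that mice were pooled for each of its Early samples. The 3 deposited samples are not these tumor samples but sequencing pools, runs 1, 2 and 3, and each mixes libraries of every stage and of both sorts. After filtering, 17764 cells remained, with 5319519 to 10808099 UMIs in each sum over a tumor sample and a sort. All levels are UMIs per 1000000 UMIs of the summed cells, written CPM.

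Potassium channels let potassium leave or enter a cell along its gradient and so set the resting potential and shape electrical signals. Voltage-gated members open on depolarization, inward rectifiers pass current more readily into the cell, 2-pore members give background currents, and calcium-activated members couple the membrane potential to intracellular calcium. In the brain, neurons use many of them for firing, glia use inward rectifiers to take up potassium released by neurons, and microglia and T cells use a few that affect calcium entry and cytokine release.

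The members were rare. In the 17764 cells kept after filtering they gave 44463 UMIs, or 0.087% of the total. The voltage-gated pore family gave 13348 of these UMIs, the inward rectifiers 9399, the 2-pore family 7160 and the non-coding RNAs 6292. Kcnh6, Kcnk16, Kcnk18 and Kcna10 had no UMI in these cells (Kcnh6 had 1 before filtering), and 23 of the 93 members had under 20. Between sorts 59 members passed the filter on low counts, and between classes 41 did. The others, with at most 65 UMIs in the first case, were not tested.

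The sorts matched their marker. Ptprc, which encodes CD45, stood at 226 to 250 CPM in CD45+ and at 3.59 to 15.9 CPM in CD45- sums. Cells were clustered without the members and named by marker genes, and a class name here always means cells that resemble that type by these RNAs. Leukocyte clusters made up 96.1%, 87.1% and 92.8% of early, medium and late CD45+ cells. Of the CD45- cells they made up 9.25%, 6.36% and 1.50%, so the carry-over between sorts differed by sample. All 7 microglia-like clusters had all 8 microglial markers raised. Cells of the glioma class were set by the human EGFR transgene, seen in 85.7% of medium and 85.5% of late cells but in only 4 of 36 early cells of the same clusters. Of the 17764 cells, 11.8% shared a barcode with a cell of another library of the same sample and sort, and the counts of called members below were also taken with 1 cell kept per shared barcode, which changed them by at most 1.

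The first comparison asked which side of the sort carried each channel. Of the 59 members tested, 42 were lower in CD45+ than in CD45- cells and 5 were higher, by the edgeR quasi-likelihood test with tumor sample as a block (3 pairs, Benjamini-Hochberg adjustment). Of all 18510 genes tested, 25.7% were lower and 20.3% higher. The median log2 fold change, CD45+ over CD45-, was -2.35 over the members and -0.04 over all genes, and the latter became -0.40 without TMM factors. A gene could pass the low-count filter through 1 sort alone, as Kcnu1 did with no UMI in CD45+ cells. Members that passed through CD45- cells alone could hardly be called higher, yet they enter the 42 and the median. In 46 members the 3 CD45- levels lay above all 3 CD45+ levels, and in 4 members they lay below, against 41.4% and 16.2% of all genes. In these sums, fewer cells of a type and less RNA per cell cannot be told apart.

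Among the members tested, the highest ratios toward CD45+ belonged to 2-pore channels. Kcnk6 (ENSMUSG00000046410, chromosome 7, 29221926 to 29232515, GRCm38) is a 2-pore channel known from macrophages. It stood at 107, 57.4 and 88.4 CPM in early, medium and late CD45+ cells and at 14.8, 10.8 and 6.89 CPM in CD45- cells. All CD45+ values lay above all CD45- values, and the log2 fold change was 3.33 ± 0.28 (SE of the fit, edgeR adjusted p = 0.00019). Kcnk12, another 2-pore member, stood at 25.6, 7.19 and 12.03 CPM against 2.72, 1.68 and 0.94 CPM, a log2 difference of 3.38 ± 0.37 (edgeR adjusted p = 0.00045). Its lowest CD45+ value was again above the highest CD45- value.

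The other 3 members that were higher in CD45+ cells come from different families. Kcnd1, which encodes a pore subunit of the rapidly inactivating A-type current, stood at 32.0, 11.6 and 18.8 CPM against 3.58, 5.34 and 1.70 CPM (log2 fold change 2.92 ± 0.47, edgeR adjusted p = 0.0027). Kcng2, a modifying subunit of voltage-gated channels, was scarce, at 3.79, 2.57 and 3.01 CPM against 0.74, 0 and 0.94 CPM (log2 fold change 2.84 ± 0.66, edgeR adjusted p = 0.011). Kcnj2, an inward rectifier that holds the resting potential, passed the test too, but its ranges overlapped. It measured 43.6, 16.8 and 26.5 CPM against 19.1, 14.3 and 14.2 CPM, a log2 difference of 1.14 ± 0.24 (edgeR adjusted p = 0.0065).

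Among the members lower in CD45+ cells, Kcna1 had the most UMIs of the 10 with the largest fall. Kcna1, a voltage-gated subunit that sits in axons near the node of Ranvier, stood at 147, 124 and 65.5 CPM in CD45- and at 4.44, 4.21 and 3.95 CPM in CD45+ cells. The groups lay far apart, and the log2 fold change was -4.33 ± 0.28 (edgeR adjusted p = 0.00013). Its relative Kcna6 measured 63.6, 66.2 and 47.7 CPM against 1.67, 4.73 and 2.82 CPM (log2 fold change -3.98 ± 0.35). The 2-pore gene Kcnk1 measured 46.4, 28.2 and 22.3 CPM against 1.11, 2.47 and 0.94 CPM (-4.05 ± 0.43). In the CD45- cells Kcna1 and Kcnk1 were lowest in the late sample and highest in the early one.

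A pair of epithelial channel genes was also lower in CD45+ cells, and on the CD45- side their levels stood lower in each later sample. Kcne2, an accessory subunit, stood at 44.0, 15.4 and 8.40 CPM in early, medium and late CD45- cells and at 0.56, 0.31 and 0.94 CPM in CD45+ cells (log2 fold change -4.87 ± 0.60). Kcnj13, an inward rectifier of epithelia, stood at 23.0, 11.1 and 2.74 CPM against 0.37, 1.03 and 0.19 CPM (-4.09 ± 0.59). Choroid plexus-like cells made up 281 of 2725 early, 49 of 1603 medium and 49 of 2268 late CD45- cells, and the levels within that class are given below.

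The remaining 5 of the 10 largest falls were in scarce genes. Kcnu1, a channel known from sperm, had 48 UMIs in the 3 CD45- sums and none in CD45+ cells. Set against a floor of 3 counts over the CD45+ group, it was at least 16.4-fold lower there. Kcnn3, Kcnv1, Kcnt2 and Kcne4 had log2 fold changes of -4.98, -4.13, -3.80 and -3.72, with CD45- levels between 1.52 and 6.71 CPM. Over the 3 CD45+ sums they had 2, 3, 6 and 10 UMIs.

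Of the tested members, 12 did not pass, and 3 of them were among the most abundant. Kcnn4, the intermediate-conductance calcium-activated channel of T cells and macrophages, stood at 37.3, 62.6 and 71.4 CPM in CD45+ and at 20.4, 45.4 and 134 CPM in CD45- cells. It was higher in CD45+ cells of the early and medium samples and lower in those of the late sample (log2 fold change 0.50 ± 0.35, edgeR adjusted p = 0.29). Kcnk13, a 2-pore channel known for the resting potential of microglia, measured 43.2, 20.9 and 33.8 CPM against 58.8, 58.1 and 33.1 CPM (edgeR adjusted p = 0.49). Kcnq1ot1, a long antisense RNA transcribed within Kcnq1 that encodes no channel, measured 92.8, 79.5 and 135 CPM against 97.4, 102 and 178 CPM (edgeR adjusted p = 0.75). It overlaps Kcnq1 on the opposite strand, as Kcnmb4os1, Kcnmb4os2, Kcnab3os and Kcnd3os overlap the channel genes they are named after, and since the use of strand in counting is not given in the sources used here, reads of such pairs cannot be told apart.

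**Figure D1:**
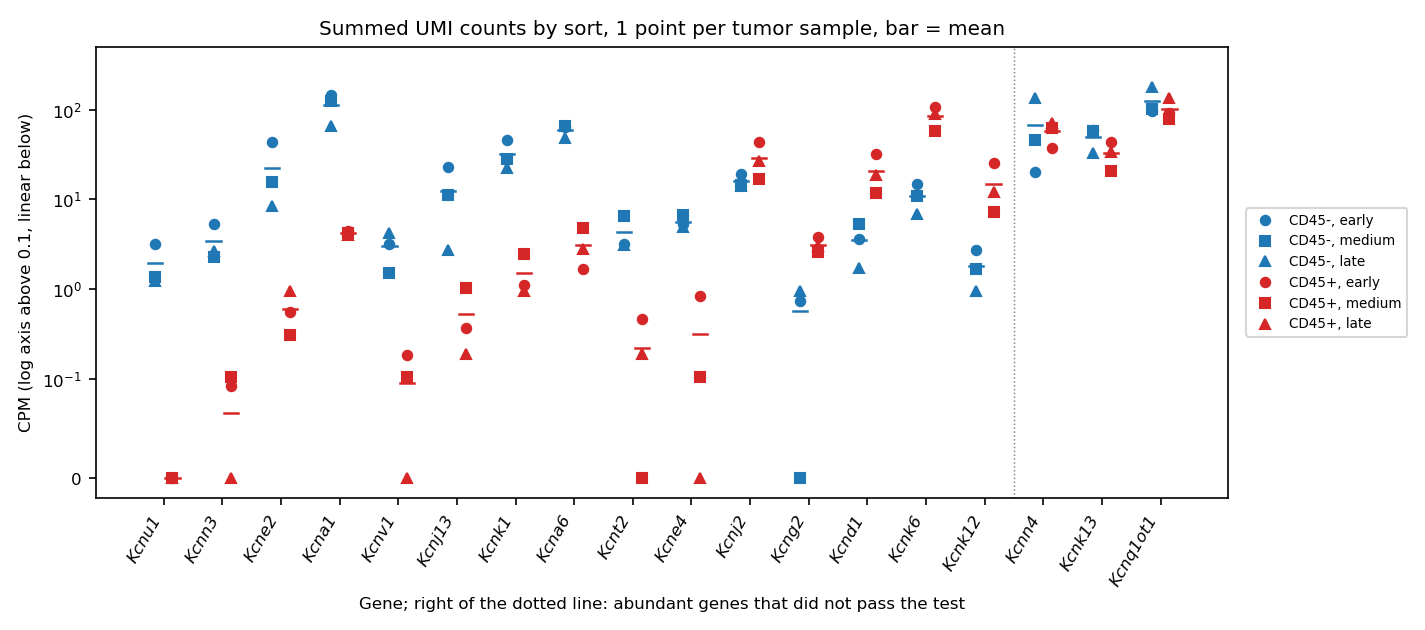
Levels (CPM, log axis above 0.1) of the 15 named members that passed the test between sorts and of 3 abundant members that did not (right of the dotted line), with 1 point per tumor sample and sort and a short bar at the mean of 3. Kcnd1, Kcnk6 and Kcnk12 sit higher in all CD45+ points, Kcna1 and Kcna6 in all CD45- points, and the Kcnn4 points of both sorts overlap.

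Cells were then divided into 17 classes with sums of at least 20 cells in at least 2 tumor samples, leukocytes taken from the CD45+ sort and all others from the CD45- sort. All 41 members tested differed between classes (edgeR quasi-likelihood test over all class terms), where 89.8% of the 12167 genes tested did, so this count lies near the background. A member passed the filter mostly through a class in which it was high. The sum of all 93 members was highest in neurons of a Syt1-led cluster, at 3634 ± 693 CPM (SD, n = 3 tumor samples), followed by oligodendrocyte progenitors (2167 ± 152), astrocytes (1982 ± 309) and pericytes or smooth muscle (1726 ± 236). It was 511 ± 36.7 CPM in microglia and 279 ± 76.7 CPM in dendritic cells, the lowest class.

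A member was said to mark a class when its mean was highest there, at least 2-fold above the next class, with 10 or more UMIs. By this rule, which carries no test, 38 members marked 7 of the 17 classes. Of the 62 members with 10 UMIs in their highest class, 38 thus qualified, against 25.1% of all genes. In 31 of the 38 the levels of the class did not overlap those of the next. The share of all marking genes without overlap is not given here, so the 31 cannot be read as particular to the members. The marked classes were astrocytes, choroid plexus, fibroblasts, oligodendrocytes, their progenitors, pericytes or smooth muscle, and Syt1-led neurons. Microglia, macrophages, border macrophages, dendritic cells, T cells, neutrophils, endothelial cells, the glioma class and the Cxcl9-led and Mki67-led clusters had no marking channel by clusters. With each cell classed by its markers alone, 36 members qualified, 34 of them with the same class as before. The 4 marks lost were those of Kcnj16 for astrocytes, Kcnmb1 for pericytes or smooth muscle, and Kcnq1ot1 and Kcnt2 for the Syt1-led neurons. The other 2 members gave marks to classes without one above: Kcnk12 marked microglia, 4.01-fold over the next class (27.4 against 6.82 CPM), and Kcnj15 marked endothelial cells, 2.94-fold over the next class, from 13 UMIs. That setting has no Mki67-led or Cxcl9-led class. By clusters, Kcnk12 averaged 27.5 CPM in microglia and 26.4 CPM in the Mki67-led cluster.

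**Figure D2:**
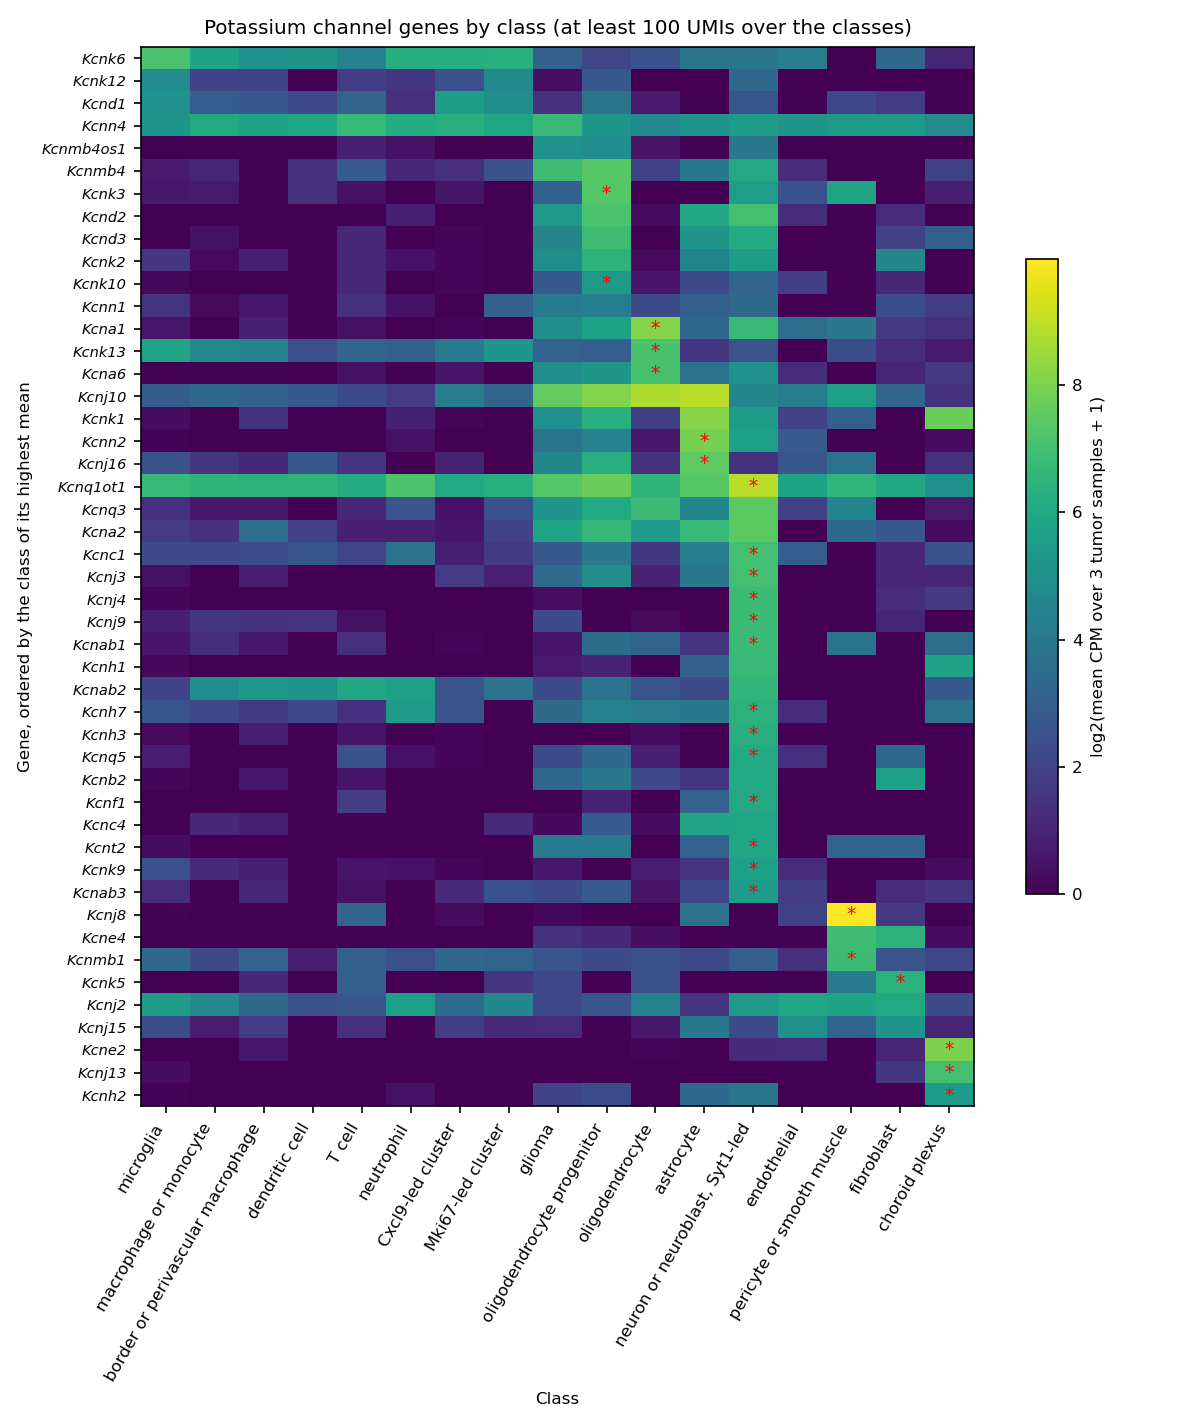
Mean level, as log2(CPM + 1) over the tumor samples, of 47 members with at least 100 UMIs (rows) in the 17 classes (columns), with a red asterisk where a member marks a class. The left block of leukocyte classes is dark for most rows apart from Kcnk6, Kcnn4 and Kcnq1ot1, and the Syt1-led neurons hold most asterisks.

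Pericytes or smooth muscle held the highest level of any channel. This class is the Rgs5-led cluster, with 7 of its 9 markers raised, without Acta2 and Myh11. It had 7 endothelial markers raised too, and its leading genes decided the name. Kcnj8 (ENSMUSG00000030247, chromosome 6, 142564837 to 142571614, minus strand) encodes the pore of an ATP-sensitive channel of vascular muscle. It stood at 1443, 827 and 762 CPM in early, medium and late cells of the class, 1011 ± 376 CPM on average, against 12.2 CPM in the next class, astrocytes. It gave 58.5% of all member CPM of the class, and its 258 UMIs were spread over 79 of 122 cells. Abcc9, whose protein is the sulfonylurea receptor that completes this channel, is no member but was highest in the same class, at 1214 ± 268 CPM. The genes are neighbours on the minus strand, 16.2 kb apart, with Abcc9 at 142587862 to 142702315. Kcnmb1, the beta subunit that raises the calcium sensitivity of the large-conductance channel in smooth muscle, marked the class too, at 41.8, 165 and 139 CPM, from 27 UMIs, though not with cells classed one by one.

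The promoter windows of Kcnj8 and Abcc9 are shown because the genes lie side by side and peaked in the same class. They run from 250 bases before to 50 after the start of transcription (RefSeq, GRCm38.p6), at chr6:142571565-142571864 and chr6:142702225-142702524 on the minus strand. Capitals mark a TATA box core (TATAAA) or a GC box (GGGCGG), searched on both strands, and the motifs do not overlap.
Kcnj8: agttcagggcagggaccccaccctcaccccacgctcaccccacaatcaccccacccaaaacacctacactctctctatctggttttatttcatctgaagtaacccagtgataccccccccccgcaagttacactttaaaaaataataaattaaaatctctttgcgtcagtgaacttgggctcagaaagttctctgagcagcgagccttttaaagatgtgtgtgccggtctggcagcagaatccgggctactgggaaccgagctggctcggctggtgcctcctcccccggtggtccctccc
Abcc9: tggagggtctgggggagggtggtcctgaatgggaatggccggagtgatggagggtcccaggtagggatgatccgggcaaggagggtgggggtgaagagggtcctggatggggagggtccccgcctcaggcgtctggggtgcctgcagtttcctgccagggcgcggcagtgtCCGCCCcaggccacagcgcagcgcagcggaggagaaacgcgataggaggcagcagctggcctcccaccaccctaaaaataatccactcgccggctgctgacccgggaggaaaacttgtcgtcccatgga
The Kcnj8 window held neither motif. The Abcc9 window held a GC box, in reverse, from base -79, a motif found in 35.7% of all 32851 windows and in 47.7% of the 86 windows of members.

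In choroid plexus-like cells Kcne2 and Kcnj13 stood apart. Kcne2 (ENSMUSG00000039672, chromosome 16, 92292389 to 92298129) measured 227, 254 and 289 CPM in early, medium and late cells and was at 1.41 ± 2.45 CPM in the next class. Kcnj13 (ENSMUSG00000079436, chromosome 1, 87386363 to 87394729) measured 119, 181 and 94.1 CPM, with 2.04 ± 3.53 CPM in the next class. Its protein serves potassium transport at the apical side of the epithelium. Kcne2 was thus highest in the late and Kcnj13 in the medium cells, whereas the whole CD45- sums were highest in the early sample for both. Kcnh2, the pore subunit of a delayed rectifier that Kcne2 can accompany, marked the class with an overlap, at 21.3, 67.9 and 45.4 CPM. Kcnk1 was shared by astrocytes (296, 256 and 300.2 CPM) and choroid plexus (156, 214 and 269 CPM), and marked neither.

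The promoter windows of both genes are shown since they peaked in this 1 class from different chromosomes. They lie at chr16:92292139-92292438 (plus strand, the first of 2 starts of Kcne2) and chr1:87394680-87394979 (minus strand), marked as above.
Kcne2: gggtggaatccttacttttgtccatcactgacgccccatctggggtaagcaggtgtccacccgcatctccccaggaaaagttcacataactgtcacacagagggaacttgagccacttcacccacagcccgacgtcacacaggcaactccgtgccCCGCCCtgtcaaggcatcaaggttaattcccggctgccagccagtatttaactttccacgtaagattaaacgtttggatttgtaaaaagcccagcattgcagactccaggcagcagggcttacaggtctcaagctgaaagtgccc
Kcnj13: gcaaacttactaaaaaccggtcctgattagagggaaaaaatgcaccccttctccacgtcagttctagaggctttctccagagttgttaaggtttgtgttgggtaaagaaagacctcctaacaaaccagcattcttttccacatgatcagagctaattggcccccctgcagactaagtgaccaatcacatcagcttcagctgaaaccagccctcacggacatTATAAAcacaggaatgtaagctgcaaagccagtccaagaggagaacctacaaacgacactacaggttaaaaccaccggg
The Kcne2 window held a GC box in reverse and no TATA core, and the Kcnj13 window a TATA core from base -29 and no GC box. The TATA core was found in 13.6% of all windows and in 5.81% of member windows.

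Oligodendrocytes were marked by Kcna1, Kcnk13 and Kcna6. Kcna1 stood at 289, 308 and 244 CPM from the early to the late sample, 2.69-fold the mean of the neurons (104 ± 40.7 CPM). Kcna6 stood at 127, 137 and 136 CPM, and Kcnk13 at 118, 146 and 154 CPM, where microglia, the next class, held 55.1 ± 8.20 CPM. None of these ranges overlapped the next class. Kcna1 and Kcna6 lie 61.9 kb apart on chromosome 6 (126640397 to 126646384 and 126708329 to 126740674), and another gene of this group, Kcna5, lies 105 kb away and had only 36 UMIs in all.

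Oligodendrocyte progenitors were marked by Kcnk3, a 2-pore channel closed by acid, at 189, 142 and 157 CPM. Pericytes came next at 55.6 ± 25.1 CPM, and the ranges did not overlap. Kcnk10, a mechanically gated relative, measured 33.3, 42.5 and 52.2 CPM there, and the voltage-gated Kcnh8 22.2, 10.6 and 39.1 CPM from 17 UMIs.

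Astrocytes were marked by Kcnn2, a small-conductance calcium-activated channel, at 237, 286 and 208 CPM, and by Kcnj16, at 113, 170.5 and 254 CPM, a mark lost with cells classed one by one. Kcnj16 encodes a subunit that joins the inward rectifier Kcnj10 in potassium uptake. Kcnj10 itself marked no class. It measured 328, 536 and 600.3 CPM in astrocytes, 439, 439 and 414 CPM in oligodendrocytes, 277, 291 and 268 CPM in progenitors and 195, 196 and 184 CPM in the glioma class. Astrocytes and oligodendrocytes overlapped, while progenitors lay below both and the glioma class below all 3. Kcnj9, which lies 11.9 kb from Kcnj10, was instead highest in the Syt1-led neurons, at 113, 95.9 and 129 CPM.

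The Syt1-led neurons held 24 of the 38 marking members. The part of all marking genes held by this class is not given here, so this count cannot be read as particular to the members. Kcnq1ot1 was highest there, at 400.2, 319.8 and 702 CPM, against 215 ± 17.3 CPM in progenitors, and did not qualify with cells classed one by one. Kcnc1, which encodes a pore subunit of fast delayed rectifiers, stood at 171, 85.3 and 127 CPM, with 18.5 ± 16.6 CPM in astrocytes. The medium sample held only 23 of these cells, and 6 of these 24 members overlapped the next class. Some members rested on few cells: 20 of the 35 Kcnc2 UMIs of the class came from 1 cell, as did 20 of the 53 Kcnt2 UMIs. Fibroblasts were marked by Kcnk5, a 2-pore channel opened by alkaline pH, at 73.4, 80.7 and 93.8 CPM, against 17.0 ± 29.4 CPM in pericytes.

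Among leukocyte clusters, microglia came closest to a marking channel with Kcnk6. Its level of 128, 147 and 155 CPM in early, medium and late microglia was 1.84-fold that of the Mki67-led cluster (113, 56.5 and 64.8 CPM), below the 2-fold rule. Neutrophils reached 171 CPM in the late sample, in 26 cells, but 21.4 and 27.1 CPM in the others. Kcnk12 was at 32.6, 25.7 and 24.2 CPM in early, medium and late microglia, and the Mki67-led cluster, at 56.3, 10.8 and 12.2 CPM, overlapped it. Kcnn4 led the T cells, at 116, 94.4 and 93.4 CPM, with Kcnq1ot1 (72.1 CPM on average) and Kcnab2, a beta subunit of voltage-gated channels (63.1 CPM), after it.

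Microglia were next set against the macrophage or monocyte class. The Cxcl9-led cluster, which held 1121 cells of the medium CD45+ sum and stayed unnamed with Lyz2 and Tgfbi as its raised markers, was on neither side. Of the 41 members tested, 2 were higher in microglia and 1 was lower (edgeR quasi-likelihood contrast, tumor sample as a block). Of all genes, 5.61% were higher and 5.97% lower, so both counts lie near the background. The median log2 fold change was 0.64 over the members and 0.16 over all genes. The member at that median, Kcna6, had 1 UMI in microglia and 0 in macrophages. Other members, such as Kcnk5 and Kcne2, had 0 in both, so this median says little about the channels.

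Kcnk6 stood at 128, 147 and 155 CPM in microglia and at 43.4, 56.5 and 59.2 CPM in macrophages, with no overlap (log2 fold change 1.42 ± 0.43, edgeR adjusted p = 0.021). Kcnd1 stood at 37.4, 27.1 and 37.6 CPM against 3.62, 8.48 and 8.93 CPM, also with no overlap (2.02 ± 0.64, edgeR adjusted p = 0.028). The Cxcl9-led cluster held Kcnd1 at 32.2 (early), 15.0 (medium) and 88.7 CPM (late), a mean of 45.3 ± 38.6 CPM that was above the microglial mean with overlapping ranges, and its late value comes from 25 cells. Both calls were lost without any 1 of the 3 tumor samples, with log2 fold changes of 1.21 to 1.53 for Kcnk6 (edgeR adjusted p from 0.063 to 0.23) and of 1.80 to 2.23 for Kcnd1 (0.13 to 0.17). Kcnab2 went the other way, at 1.12, 2.93 and 4.95 CPM in microglia and 18.1, 41.0 and 24.0 CPM in macrophages (-3.26 ± 0.54, edgeR adjusted p = 8.7e-06). Its groups lay apart, though the early macrophages gave 5 UMIs. Kcnk13 was at 49.4, 64.5 and 51.5 CPM against 32.6, 14.1 and 27.4 CPM and did not pass (edgeR adjusted p = 0.086). Kcnj2 and Kcnn4 did not pass either, with 43.4 ± 8.41 against 26.0 ± 4.61 CPM and 37.2 ± 4.68 against 65.7 ± 28.7 CPM.

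Stages were compared within microglia without a test, since each stage holds 1 tumor sample. The intervals are exact 95% binomial intervals on the UMI counts, which cover counting error only and neither animals nor libraries. Of the 18 members with at least 20 UMIs over early and late microglia, 0 differed 2-fold or more, where 7.4% of 14020 genes did. The most abundant ones were close. Kcnk6 differed from early to late by 0.27 on the log2 scale (0.08 to 0.46), Kcnk13 by 0.07 (-0.27 to 0.38), Kcnd1 by 0.02 (-0.37 to 0.38) and Kcnj2 by -0.27 (-0.62 to 0.06). Kcnq1ot1 had the widest margin from 0 among them, at 87.9 CPM early, 88.7 medium and 129 late, a log2 difference of 0.56 late over early (0.35 to 0.76). Within sequencing runs 2 and 3 that difference was 0.51 and 0.57.

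From early to medium, 5 of the 18 members were 2-fold or more apart, and all 5 were lower in the medium sample. Of 13771 genes, 10.6% were past 2-fold in either direction and 7.03% lower. These members were scarce. Kcnk9, an acid-sensitive 2-pore channel, had 41 UMIs in early microglia (5.12 CPM) and 0 in the medium ones, at least 2.33-fold lower against a floor of 3 counts. Kcnj15, Kcnj16, Kcna2 and Kcnn1 had 52, 39, 29 and 23 early UMIs and 1 medium UMI each, and the intervals of Kcna2 and Kcnn1 included 0. Single libraries weighed on these values. For Kcnj15, 44 of the 52 early UMIs came from 1 library of run 3, at 18.0 CPM, and the other 3 early libraries stood at 0.93 to 4.45 CPM. For Kcnj16, 37 of the 39 early UMIs came from both libraries of run 3, and 8 of the 16 late UMIs from 1 cell. In run 2 alone these 5 members had between 1 and 15 UMIs each over both stages, under the minimum of 20, so they could not be counted there. Within run 3, where the medium microglia gave 312750 UMIs, 6 members were past 2-fold, and the intervals of all 6 included 0. Kcnj15, Kcnj16 and Kcnk9 were among them, with 48, 37 and 21 early UMIs and 0 medium ones. The other 3 were Kcnj10 and Kcnh7, lower in the medium cells, and Kcnc1, higher there. Kcnk6 lay between 118 and 185 CPM in all 11 libraries.

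The medium sample also held 1121 CD45+ cells of the Cxcl9-led cluster, against 128 early and 25 late ones, which had few microglial markers and were kept apart. With this cluster added to the microglia, 8 members were past 2-fold from early to medium. The share of all genes in that setting is not given here, so this count cannot be read as particular to the members. The log2 difference of Kcnk6 then moved from 0.19 to -0.47 and that of Kcnk12 from -0.33 to -1.50. In the cluster alone, Kcnk6 stood at 104 (early), 61.9 (medium) and 53.2 CPM (late).

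**Figure D3:**
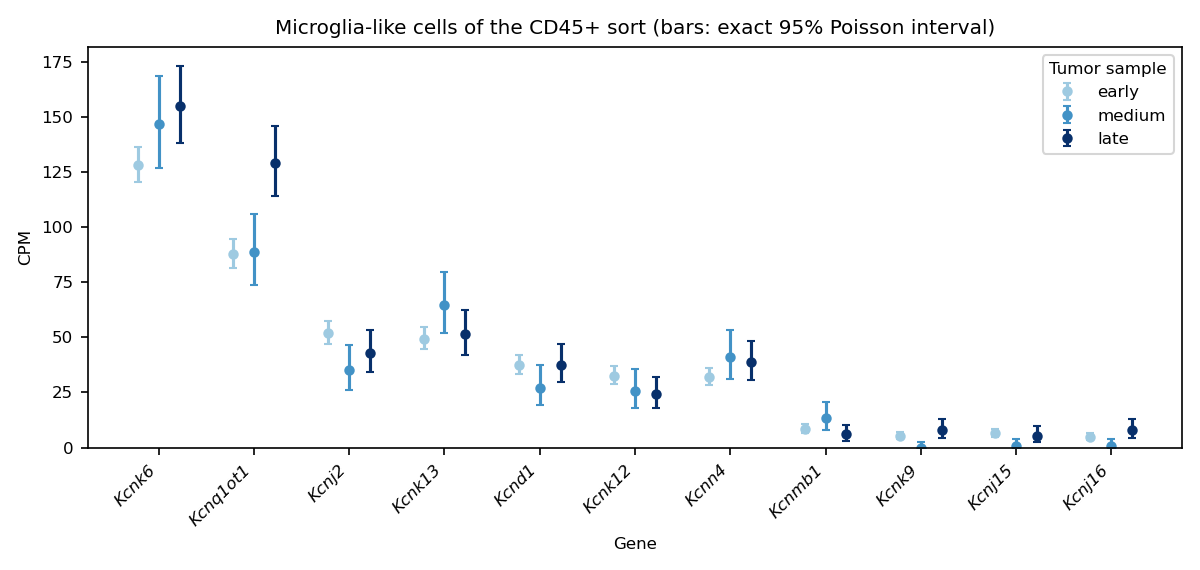
Levels (CPM) of 11 members in microglia-like cells of the CD45+ sort, 1 point per tumor sample with its exact 95% Poisson interval for counting error. Kcnk6 lies between 128 and 155 CPM at all stages, Kcnq1ot1 is highest in the late sample, and the medium points of Kcnk9, Kcnj15 and Kcnj16 lie at or near 0.

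Within the 7 microglial clusters, over all stages, Kcnk6 ranged from 96.0 CPM (95% Poisson interval 74.8 to 121) in the Gm9973-led to 161 CPM (145 to 179) in the P2ry12-led cluster. Kcnk13 ranged from 38.4 to 59.3 CPM and Kcnd1 from 26.0 to 44.0 CPM. The P2ry12-led cluster made up 18.8% of early, 6.41% of medium and 41.7% of late microglia.

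Tumor cells were set against oligodendrocyte progenitors, which held the transgene in at most 5.45% of cells of a sample. The Gpr17-led, AI506816-led and Pbk-led clusters of the glioma class shared 8 to 10 raised progenitor markers with them, whereas the Thbs2-led cluster, 48.9% of late glioma cells, stayed unnamed with at most 2 raised markers of any list and was included for its transgene. Of the 41 members tested, 9 were lower in the glioma class and 1 was higher (edgeR quasi-likelihood contrast). Of all genes, 6.9% were lower and 9.9% higher. The median log2 fold change, glioma over progenitors, was -0.62 over the members and 0.03 over all genes, and the latter became -0.14 without TMM factors. The early glioma sum held 36 cells and 112882 UMIs. Without it 12 members were lower and 1 was higher. The share of all genes in that fit is not given here, so these counts cannot be set against the background.

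Kcnk3 differed most. It stood at 17.7, 1.74 and 3.45 CPM in early, medium and late cells of the glioma class and at 189, 142 and 157 CPM in progenitors (log2 fold change -5.31 ± 0.71, edgeR adjusted p = 3.0e-07). It was the only member of the 9 that stayed lower without the late sample. Kcnd2 and Kcnd3, both of the A-type current, had log2 fold changes of -2.16 ± 0.54 and -1.97 ± 0.57. In both, all values of the glioma class lay below all values of the progenitors.

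The 2-pore Kcnk1 was at 70.9, 10.9 and 13.1 CPM in the glioma class and at 97.0, 70.9 and 71.8 CPM in progenitors (-2.04 ± 0.50), so its early value came within 0.1 CPM of the lowest progenitor value while the others lay far below. Kcnj16 had a log2 fold change of -2.02 ± 0.71. Kcnab1 and Kcnc4, at -3.44 ± 0.95 and -4.17 ± 1.22, rested on 8 and 5 progenitor UMIs. Without the late sample 8 of the 9 calls were lost. With cells classed one by one, cells with progenitor markers but no transgene UMI count as progenitors. Cells of the glioma clusters can thus enter that group. In that setting Kcnk3 alone stayed lower (log2 fold change -4.52, edgeR adjusted p = 0.0029). There Kcnd2, Kcnk1, Kcnj16, Kcnab1 and Kcnc4 had log2 fold changes of -1.23, -1.14, -1.16, -2.68 and -2.92 (edgeR adjusted p from 0.25 to 0.61), and the call of Kcnd3 was lost too.

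Kcnn4 (ENSMUSG00000054342, chromosome 7, 24370263 to 24386690) was the only member higher in the glioma class. It stood at 70.9, 67.5 and 186 CPM there and at 25.0, 49.6 and 39.1 CPM in progenitors, with no overlap (log2 fold change 1.57 ± 0.43, edgeR adjusted p = 0.0062). The early value rests on 8 UMIs and the late progenitors on 6. The late UMIs of the glioma class came mostly from its Thbs2-led cluster, and levels by cluster are given below. Without the late sample the log2 fold change was 0.92 (edgeR adjusted p = 0.41). With cells classed one by one it was 0.09. That setting needs progenitor markers and a transgene UMI in each tumor cell. It leaves out most of a Thbs2-led cluster of the glioma class, and other tumor cells, with 489 late and 202 medium cells left. Tumor cells without such a UMI can count as progenitors there.

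**Figure D4:**
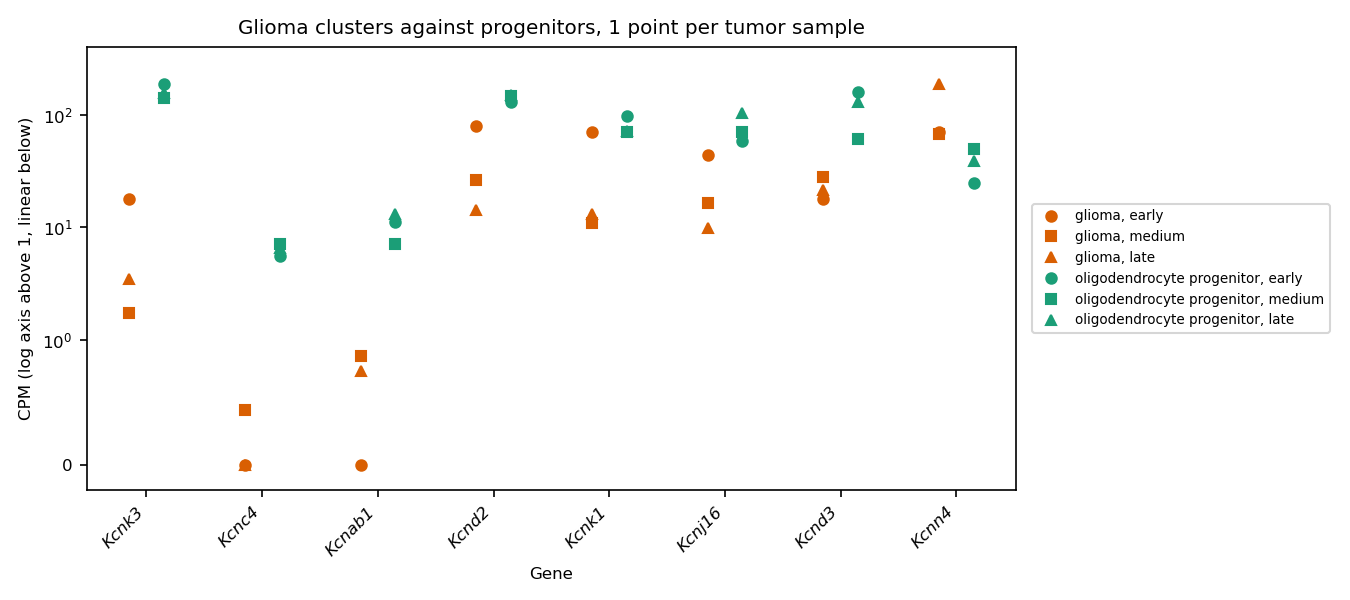
Levels (CPM, log axis above 1) of 8 of the 10 members that passed the test between the glioma class and oligodendrocyte progenitors, with 1 point per tumor sample and class. Kcnk3 is at most 17.7 CPM in the glioma class and at least 142 CPM in progenitors, and Kcnn4 is the 1 gene on the right with the order reversed.

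From the medium to the late tumor, 8 of the 38 members with at least 20 UMIs were past 2-fold in the glioma class, where 12% of 15360 genes were. Of these, 4 were higher in the late sample (7.14% of all genes) and 4 lower (4.83%). Kcnn4 rested on the most UMIs, 1238 late and 155 medium, and its log2 difference was 1.46 (1.22 to 1.71). It lay between 155 and 198 CPM in the 4 late libraries and between 63.1 and 74.8 CPM in the 4 medium ones, and within run 2 the log2 difference was 1.53 (1.19 to 1.89). The intervals of Kcne4 and Kcnc1, also past 2-fold, included 0.

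The members lower in the late tumor were Kcna1, Kcnj3, Kcnk13 and Kcnh8. Kcna1 stood at 44.4 CPM in medium and 18.9 CPM in late cells (log2 difference -1.23, -1.62 to -0.84). The AI506816-led cluster, which held medium cells and no late or early ones, had Kcna1 at 54.2 CPM (95% Poisson interval 43.4 to 66.9). Within the Gpr17-led cluster Kcna1 was not lower in late cells, with 12.5 CPM in medium (4.07 to 29.3) and 20.6 CPM in late cells (14.7 to 28.0), and the intervals overlapped. Kcnk13 and Kcnj3 were lower in late cells of that cluster too, Kcnk13 at 27.6 CPM in medium (13.8 to 49.4) and 9.78 CPM in late cells (5.89 to 15.3), and Kcnj3 at 37.6 (21.1 to 62.0) and 16.5 CPM (11.3 to 23.2). For both the intervals overlapped slightly. Over the class, Kcnk13 stood at 17.9 and 5.25 CPM (-1.76, -2.46 to -1.08), and Kcnh8 at 6.97 and 1.95 CPM. Kcnj3, an inward rectifier gated by G proteins, stood at 16.5 and 5.10 CPM (-1.70, -2.41 to -0.99), and 26 of its 38 medium UMIs came from 1 of 4 libraries. The abundant Kcnj10 was at 196 and 184 CPM (-0.09, -0.25 to 0.07) and Kcnmb4, a neuronal beta subunit of the large-conductance channel, at 115 and 136 CPM (0.24, 0.04 to 0.44).

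**Figure D5:**
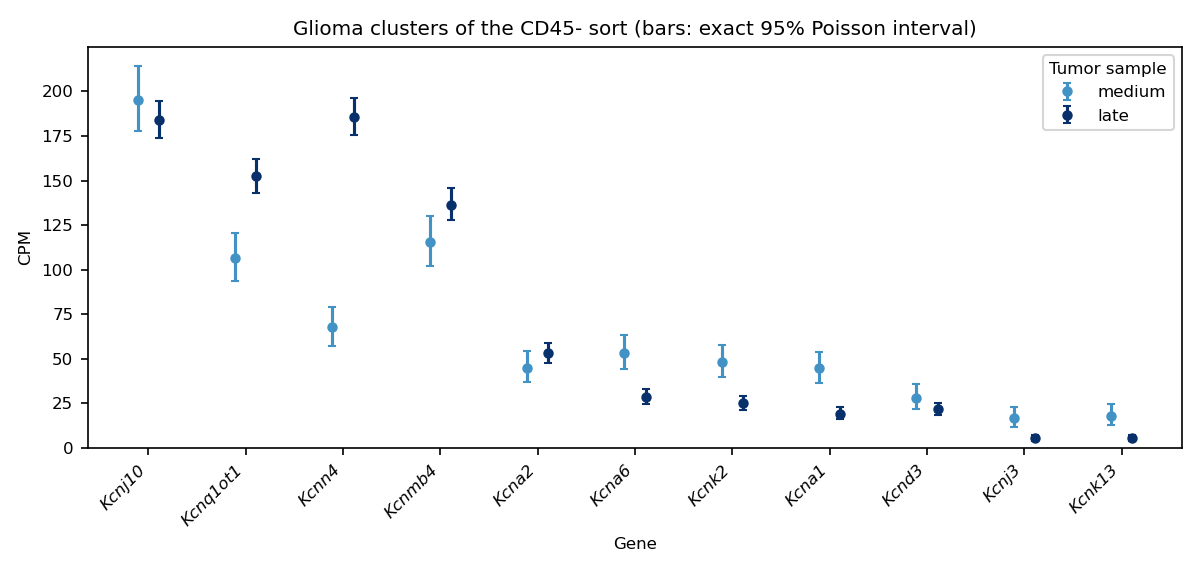
Levels (CPM) of 11 members in glioma clusters of the medium and late samples, with exact 95% Poisson intervals for counting error. Kcnn4 lies at 67.5 CPM (medium) and 186 CPM (late) with separate intervals, Kcnj10 has overlapping intervals, and Kcna1 and Kcnk13 are lower in the late sample.

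The late UMIs of Kcnn4 came mostly from 1 cluster, with 1116 of 1238. Late cells of the Thbs2-led cluster stood at 285 CPM (95% Poisson interval 269 to 302), late cells of the Gpr17-led cluster at 46.3 CPM (37.2 to 56.9) and dividing, Pbk-led ones at 39.7 CPM (27.2 to 56.1). The Thbs2-led cluster made up 48.9% of late and 3.09% of medium glioma cells. The medium sample had a cluster of its own, led by AI506816, with 69.1% of its glioma cells and 69.2 CPM of Kcnn4 (56.9 to 83.3). In the Gpr17-led cluster, the 1 large cluster common to both samples, the medium level was 40.1 CPM (22.9 to 65.2), and its interval overlapped the late one. In the late sample Kcnmb4 stood at 183, 71.5 and 67.0 CPM in the Thbs2-led, Gpr17-led and Pbk-led clusters. Kcnj10 stood at 191, 191 and 133 CPM there.

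Kcnn4 was seen in all 17 classes, with means from 26.7 CPM in oligodendrocytes to 108 CPM in the glioma class. Beside the glioma class, 15 of 16 classes were higher in the late than in the early sample, with a median ratio of 2.21. In the 8 other CD45- classes of the late sample Kcnn4 stood at 17.2% to 42.6% of its glioma level. The human EGFR transgene stood at 0% to 11.9% of its glioma level in these classes, with a median of 0.64%. The glioma class was set by this transgene, so its low level in other classes is partly given by that rule. The part of free RNA in the Kcnn4 levels of the other classes was not tested.

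Genes that work with the channels were counted from lists of partner subunits (18 genes, such as Kcnma1, the Kcnip and Dpp genes, Abcc8 and Abcc9 and the Hcn genes) and of pumps and cotransporters (18 genes). Of 12 partners tested between sorts, 11 were lower in CD45+ cells and 0 higher, where 25.7% and 20.3% of all genes were. In the same fit 9 of 16 pumps and cotransporters were lower and 1 was higher, Fxyd5, a regulator of the sodium pump. Between glioma and progenitors 5 of 11 partners were lower and 0 higher (edgeR quasi-likelihood contrast), where 6.9% and 9.9% of all genes were. Among them Kcnip3, a calcium sensor that binds the A-type pore proteins, and Dpp6, another subunit of that current, had log2 fold changes of -2.55 and -2.38, beside -2.16 for Kcnd2 and -1.97 for Kcnd3. Of 15 pumps and cotransporters 3 were lower and 1 was higher, Fxyd1. Between microglia and macrophages 2 of 11 partners were higher in microglia, Kcnma1 (log2 fold change 2.46) and Kcnip3 (2.21), and 3 of 15 pumps and cotransporters were lower, where 5.61% of all genes were higher and 5.97% lower.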

How the data were processed

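The authors ran bcbio-nextgen, which maps with RapMap, on inDrop reads against GRCm38 transcripts plus the transgenes, separated cells from empty droplets and deposited the raw counts (UMIs of each gene in each cell), with a library annotation of another unit (text) giving run, sort and stage. Removal of ambient RNA and doublets is stated, but not whether it preceded the deposited counts. 1 library of 17 cells was left out (23 of 24 used). Of 20794 cells, 17877 passed 500 UMIs, 500 genes and at most 20% mitochondrial UMIs, and 113 that Scrublet called doublets (0.635%, expected 6%) were removed. Cells were clustered (scanpy 1.11.5, leidenalg 0.10.2, 2000 variable genes, 40 components, 20 neighbours, resolution 2, set so that classes separated), without the members and their partner lists. A cluster took the class name with the most raised markers, at least 3. It stayed unnamed if its leading genes held more markers of another class, as did a cluster led by Elane. Clusters with progenitor markers and the transgene in at least 20% of medium and late CD45- cells formed the glioma class. Unnamed, astrocyte or neuron clusters with that share joined it if most of their cells were CD45- and at least 20 were medium or late CD45- cells. Sums per tumor sample were tested with edgeR 4.0.16 (quasi-likelihood, TMM, filterByExpr, two-sided, threshold 0.05), with tumor sample as a block, since both sorts come from 1 sample. Deviations of the 2 sorts from their means correlated at 0.38, 0.28 and 0.30 in the early, medium and late pairs. The between-sort fit had 2 residual degrees of freedom. An SE comes from the fit, and an SD is over the 3 tumor samples. Replicates were the tumor samples of the 3 stages, not the 3 deposited pools (sequencing runs, each with libraries of all stages). With the block, p-values between sorts measure how the sort difference varies over these samples, which also differ in stage. Class contrasts took the spread of a gene from all 51 sums of 17 classes, with 32 residual degrees of freedom. The members and lists were chosen with earlier results of these data known. Named genes were up to 10 called in each direction between sorts, up to 2 marking members a class by UMIs, up to 8 called in each direction between classes, and by UMIs or a 2-fold difference between stages. Genes named beyond these were chosen after their values were seen. Some alleles and members are not reported here, though such members stay in the counts. Scripts were tested on simulated data. DESeq2 1.42.0 was an alternative.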

Additional observations from a re-analysis of the deposited data

Results flagged for a closer look

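3 classes had at least 20 cells in only 1 tumor sample and entered no comparison. In them 5 members, 1 of them in 2 classes, had more than 3 counts and a level above their mean in each of the 17 classes compared, with no replicate. Ependymal-like cells of the early sample held Kcnmb1 at 166 CPM and Kcnmb2, another beta subunit of the large-conductance channel, at 21.1 CPM. Kcnmb1 was thus above its level in pericytes or smooth muscle of the early sample, 41.8 CPM. Neurons or neuroblasts of a Dlx2-led cluster of the early sample held Kcnn1, a small-conductance channel gene, at 37.0 CPM, Kcnmb2 at 37.0 CPM and Kcne1l, an accessory subunit, at 27.7 CPM. These values rest on 8, 8 and 6 UMIs. Early cells of the glioma class held Kcnn1 at 35.4 CPM. Kcne1l averaged 14.8 ± 25.6 CPM (SD) in the glioma class, a spread that places 1 tumor sample there above 27.7 CPM. B cell-like cells of the medium sample held Kcnmb4os2, a non-coding RNA that overlaps Kcnmb4 on the opposite strand, at 20.5 CPM, and reads of the pair cannot be told apart. Each of these values comes from 1 tumor sample, and the cause was not tested.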

How the results depend on the processing

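Between sorts, the counts of 5 higher and 42 lower members ranged over 5 to 6 and 37 to 47 under all alternatives, DESeq2 and the fit without the replicate block included (5 and 41 there). Without the block no call of a member named above changed. 41 members differed between classes, 69 when every gene with at least 1 count was tested. For microglia against macrophages, the count of 2 higher members became 0 to 1 when a tumor sample was left out. Neither Kcnk6 nor Kcnd1 kept its call in those fits, so the 1 was another member. The count became 1 without the 5% highest doublet scores and 1 with DESeq2. The 1 lower member became 2 when every gene with at least 1 count was tested. For glioma against progenitors, the 1 higher member became 0 to 1 and the 9 lower ones 1 to 8 when a tumor sample was left out. With cells classed one by one, where tumor cells without a transgene UMI can count as progenitors, they became 0 and 1. Early to late microglia had 0 members past 2-fold, but 1 within run 2, 2 within run 3, 4 at a minimum of 10 UMIs, 2 with cells classed one by one and 1 with the Cxcl9-led cluster added. Early to medium microglia had 5, and 6 within run 3, but 0 within run 2 and 1 at a minimum of 50 UMIs, where all 5 and 4 of the 5, respectively, were under the minimum and could not count, and 8 with that cluster added. Medium to late glioma cells had 8, and 5 at a minimum of 50 UMIs. All counts of members under alternatives are given without the share of all genes. Run 1 held under 100 cells of a stage, as did run 3 for glioma, so no within-run value was taken there. Adding the Cxcl9-led cluster, keeping 1 cell per shared barcode and leaving out the early glioma sum were chosen after seeing the data. Of the values of single members under an alternative, 540 kept their call or stayed within their interval, 30 lost a call, 15 moved further and 0 changed direction while called. Causes were not tested. UMI depth limits the scarce members: 52 of 93 could not be tested between classes.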
